A study of Homo sapiens with 30 samples.

Results

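The mRNAs of the cytosolic ribosomal proteins were followed in WI-38 cells, cultured human lung fibroblasts that senesce in culture. A gene was taken as a member when an array feature carried a single gene symbol that began with RPL or RPS and a number, or was RPSA, RPLP0, RPLP1 or RPLP2. Kinases of the RPS6K family, like-paralogs such as RPL22L1, pseudogenes, a hyphenated symbol and the binding protein RPS19BP1 were left out. Of 114 features whose symbol began this way, 56 belonged to members and stood for 49 genes, out of 19912 genes that had a feature to themselves. The large subunit contributed 27 of these genes and the small subunit 22. Another 21 ribosomal protein symbols, among them RPL5, RPL23, RPLP2 and RPS2, lay only on features shared by several symbols and were not analysed here. No filter on low values was applied, so all 49 members entered every test. The members RPS4Y1 and RPS4Y2 lie on the Y chromosome and were counted, but their levels are not given.

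Total RNA was hybridised to 30 Affymetrix HTA 2.0 arrays, which probe the exons and splice junctions of protein-coding and other RNAs. One course used WI-38 cells that carry a doxycycline-inducible RAF oncogene, with arrays labelled T0 and 12, 24, 48, 72 and 96 h, and per the labels the inducer was 100 ng/ml doxycycline. The other course, labelled replicative senescence, held arrays of WI-38 cells at T0 and at 144, 264, 432, 624, 792, 1008, 1368 and 2112 h, driven to proliferative exhaustion in 21% oxygen. Growth medium and gas (5% carbon dioxide, 3% oxygen) were given alike for all samples. Each of the 15 labelled groups held 2 arrays. The treatment text was the same for every sample and did not describe T0 on its own, so that RAF activity, doxycycline and time in culture cannot be told apart in the RAF course, nor time and oxygen in the replicative course. The labels did not say which promoter or clone carried the RAF gene. The RAF replicates were called biological, while nothing said so of the replicative ones, for which a p-value may measure technical spread only.

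Each cytosolic ribosome joins a small subunit, which reads the mRNA, to a large subunit, which forms the peptide bonds, and nearly every ribosomal protein is present in a single copy. Most of their mRNAs start with a cytosine followed by a run of pyrimidines, the 5′ terminal oligopyrimidine (5′TOP) motif, through which mTOR and the RNA-binding protein LARP1 govern their translation and stability. Some ribosomal proteins, such as RPL5 and RPL11 in the 5S particle, bind MDM2 and stabilise p53 when ribosome assembly is disturbed, which ties them to growth arrest in fibroblasts.

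The deposited values, read as log2 intensities, had a median of 5.5 on every array and were rounded to steps of 0.1, so small differences were coarse and many values tied. The 2 arrays of a group correlated at 0.992 to 0.997 over all features, and 28 of the 30 arrays had their partner as the closest array. A principal component that held 64.2% of the variance put 12 arrays, those labelled replicative T0 and 624 to 2112 h, on one side and 18 arrays, all RAF arrays and those labelled replicative 144 to 432 h, on the other. The 7 fibroblast markers measured had mean levels from 7.27 to 11.8, the 5 epithelial ones from 3.84 to 5.62, the 4 endothelial ones from 4.04 to 5.63 and the 2 leukocyte ones 5.02 and 6.06. At RAF 12 h 3 fibroblast markers rose and 3 fell, where 9.7% of all features rose and 9.73% fell. The leukocyte marker CD14 fell by 2.05 (limma adjusted p 1.46e-05) and the other leukocyte marker did not pass. At replicative 144 h 6 fibroblast markers rose and 1 fell, with a median of 0.60, against 30.1% and 28.6% of all features. CD14 rose there by 0.95 (limma adjusted p 2.64e-06) and the other leukocyte marker again did not pass. At 792 h 1 fibroblast marker rose and 6 fell, with a median of -0.90, against 13.1% and 11.7% of all features. The part of these markers in the results on ribosomal proteins was not tested. The 10 mitotic genes measured, such as MKI67, went against the order of the labels. Their mean deviation from each gene's own average was lowest, at -1.68, on the arrays labelled RAF T0, and was 1.61 at 12 h and 1.24 at 96 h. On the replicative arrays it was 1.95 at T0, -1.28 at 1008 h and 1.48 at 2112 h. The time labels are therefore used here as labels of arrays, and the counts against T0 are given below beside those against a second baseline, 24 h or 144 h.

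The start-site windows of 10 members are shown because they hold the sequence that defines a 5′TOP mRNA and because these genes rose most, varied most or varied least below. Each window runs from 15 bases before RefSeq's annotated 5′ end of the gene to 15 bases into its first exon, 5′ to 3′ on the gene's own strand, in build GRCh38.p14. Capitals mark the unbroken run of pyrimidines that holds the annotated start (base 16), and a window with no capitals has a purine there.
RPL29 (chr3:51995881-51995910, minus strand): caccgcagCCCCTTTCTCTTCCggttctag
RPS3 (chr11:75399503-75399532, plus strand): gcccgcgagccaCTTCCTTTCCTTTCagcg
RPLP1 (chr15:69452803-69452832, plus strand): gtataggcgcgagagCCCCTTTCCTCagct
RPL10A (chr6:35468386-35468415, plus strand): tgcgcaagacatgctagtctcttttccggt
RPS19 (chr19:41860240-41860269, plus strand): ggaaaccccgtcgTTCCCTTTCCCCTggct
RPS4X (chrX:72277234-72277263, minus strand): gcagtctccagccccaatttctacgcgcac
RPS28 (chr19:8321481-8321510, plus strand): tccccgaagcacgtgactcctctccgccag
RPS15 (chr19:1438381-1438410, plus strand): tgcgcaggcgcggaCCaaagcgatctcttc
RPL22 (chr1:6199581-6199610, minus strand): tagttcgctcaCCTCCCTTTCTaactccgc
RPL26 (chr17:8383179-8383208, minus strand): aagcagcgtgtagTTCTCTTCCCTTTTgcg

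A window was found for 44 of the 49 members, all but RPL7, RPL8, RPL30, RPL37 and RPS15A. A C at the annotated start followed by at least 4 pyrimidines was present in 32 of the 44 (72.7%), against 1104 of all 27305 genes with an entry (4.04%). A run of 8 or more pyrimidines lay somewhere in the window of 35 members (79.5%), against 3647 of all genes (13.4%), and the 6-letter string CTTTCC, searched on both strands and overlapping such runs, lay in 12 members (27.3%) against 718 of all genes (2.63%). In RPL10A, RPS4X and RPS28 the annotated start is an A, although RPL10A and RPS28 carry pyrimidine runs a few bases further on. A string in a window is a description and does not place the start used in these cells.

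Against the arrays labelled RAF T0, nearly the whole set of ribosomal protein mRNAs was higher at 12 h and none was lower beyond the test. By limma's test, at an adjusted p under 0.05 over all 52329 features, 41 of the 49 members rose at 12 h and none fell, where 9.7% of all features rose and 9.73% fell. The members' median difference was 0.35 on the log2 scale, against a median of 0 over all features. Both subunits took part, with 22 of 27 large-subunit and 19 of 22 small-subunit members past the test. In bulk RNA, fewer cells of a type and less RNA per cell cannot be told apart, and all 5 RAF comparisons share the same 2 T0 arrays.

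The counts were smaller at the middle times and larger again at the last. At 24 h, 9 members rose (2.64% of all features rose and 3.26% fell), with a median of 0.15. At 48 h, 25 rose (3.96% of all features rose and 4.35% fell), with a median of 0.20. At 72 h, 28 rose (4.34% and 4.47%), with a median of 0.25. At 96 h, 34 rose (7.97% and 7.71%), with a median of 0.30, 18 of them in the large and 16 in the small subunit. No member fell in any of these comparisons by limma's test, and at an unadjusted p under 0.05 none fell either. Over the RAF times together, limma's F test passed for 33 members, against 19.6% of all features.

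The middle counts fell whichever array of the compared groups was left out, and so did the counts over all features. A group left with 1 array gives a weaker test, so these lower counts do not trace a result to a single array. The members' median difference stayed at 0.1 to 0.15 for 24 h, 0.2 to 0.25 for 48 h and 0.2 to 0.3 for 72 h. At 24 h the count was 1 without T0 replicate 1, 3 without T0 replicate 2, 2 without 24 h replicate 1 and 5 without 24 h replicate 2. At 48 h it was 10 without T0 replicate 1, 12 without 48 h replicate 1 and 15 without 48 h replicate 2. At 72 h it was 10 without T0 replicate 1, 6 without 72 h replicate 1 and 7 without 72 h replicate 2. At 12 h the count stayed between 32 and 38 with any 1 array left out, and at 96 h between 24 and 31. With the arrays labelled 24 h as the baseline instead of T0, a choice made after seeing the data, 24 members rose at 12 h, where 12.6% of all features passed in either direction, and 9 at 96 h, where 9.46% did. At 48 and 72 h no member passed, and 0 of all 52329 features did by limma's test. At an unadjusted p under 0.05, 13 members were higher at 48 h and 15 at 72 h and none was lower, where 11.7% and 13.2% of all features were below that p in either direction. Of the mitotic genes, all 10 rose against T0 at 12 and at 96 h, with medians of 3.52 and 3.05, and 5 rose at 24 h, with a median of 0.82. Their part in the ribosomal protein counts was not tested.

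**Figure D1:**
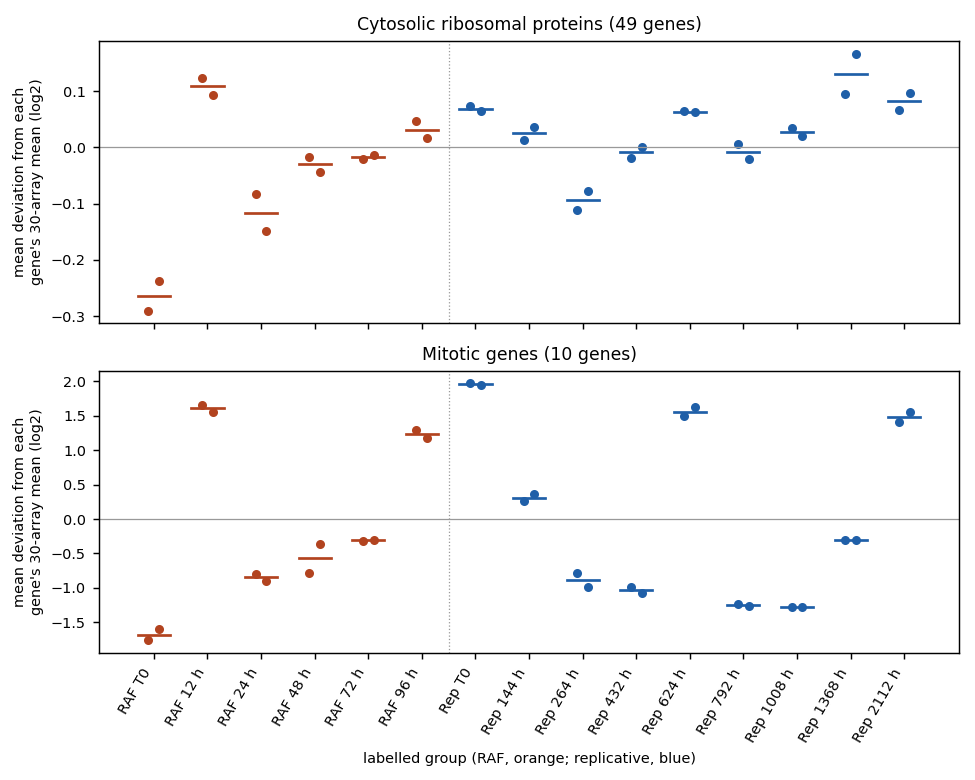
Mean log2 deviation of the 49 ribosomal protein genes (upper panel) and of 10 mitotic genes (lower panel) from each gene's average over the 30 arrays, by labelled group; points are arrays and bars are the means of 2. The ribosomal protein level ran from -0.26 at RAF T0 to 0.13 at replicative 1368 h, a far narrower span than the mitotic one.

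Among proteins of the large subunit's flexible stalks, RPL10A, which sits on the L1 stalk where spent tRNA leaves, read 9.2 on both RAF T0 arrays and 9.9 and 9.8 at 12 h. It then read 9.4 on both 24 h arrays, 9.6 and 9.5 on the 48 h pair and again on the 72 h pair, and 9.7 on both 96 h arrays. Every later RAF array was thus above both T0 arrays, the 12 h arrays highest and the 24 h arrays lowest. RPL10A rose by 0.65 (SE 0.05) at 12 h and by 0.50 (SE 0.05) at 96 h, with limma adjusted p of 0.000135 and 0.000726. RPLP1, an acidic protein of the P stalk that recruits the translation GTPases, read 7.9 on both T0 arrays, 8.5 on both 12 h arrays, 8.2 on both at 24 h and 8.3 on both at 96 h, with 8.4 and 8.3 at 48 h and 8.3 and 8.4 at 72 h. No array of a later RAF group overlapped T0. The rise of RPLP1 was 0.60 (SE 0.05) at 12 h, 0.30 at 24 h and 0.40 at 96 h, with limma adjusted p of 0.000118, 0.0149 and 0.00119. RPLP1 is the member of the stalk trio measured here, as RPLP0 and RPLP2 had no feature of their own.

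RPL29, a small basic protein of the large subunit, gave 8.3 and 8.4 on the T0 arrays, 9.0 on both at 12 h, 8.7 and 8.6 at 24 h, 8.7 on both at 48 h, 8.8 and 8.9 at 72 h and 8.9 on both at 96 h. The groups did not overlap with T0, and the 12 h arrays stood highest. The RPL29 rise was 0.65 (SE 0.05) for 12 h, 0.30 for 24 h, 0.50 for 72 h and 0.55 for 96 h, with limma adjusted p of 0.000135, 0.0221, 0.00181 and 0.000492. RPL27, a large-subunit protein known from Diamond-Blackfan anaemia, also passed at each later time, by 0.30 at 24 h and by 0.40 at 48 and 72 h.

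Small-subunit members rose alongside, 19 of 22 at 12 h, and some are given here. RPS3, which lines the mRNA entry channel and acts in DNA repair outside the ribosome, read 9.1 and 9.2 at T0, 9.8 on both 12 h arrays, 9.3 on both at 24 h and 9.5 and 9.6 at 96 h. Its 12 h arrays were the highest of all 30. RPS3 rose by 0.65 (SE 0.05, limma adjusted p 0.000135) at 12 h and by 0.40 (adjusted p 0.00222) at 96 h. RPS16, whose tail reaches the tRNA in the P site, read 11 on both T0 arrays and 11.6 on both 12 h arrays, a rise of 0.60 (SE 0.06, limma adjusted p 0.000324). RPS29, a zinc-binding protein of the subunit's head, read 8.7 on both T0 arrays and 9.2 and 9.4 at 12 h. The T0 and 12 h arrays of both genes were apart, and the RPS29 rise was 0.60 (SE 0.07, limma adjusted p 0.000477). RPS12, a protein of the subunit's beak, rose by 0.35 (SE 0.05) at 24 h, the most of any member there, and by 0.50 (SE 0.05) at 96 h, with limma adjusted p of 0.00794 and 0.000451. RPS9, a neighbour of RPS3 at the entry channel, rose by 0.55 at 12 h and 0.45 at 96 h, and RPS23, at the decoding centre, rose by 0.55 at 12 h.

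RPS19, the protein most often mutated in Diamond-Blackfan anaemia, passed at each later time. It read 10.3 on both T0 arrays, 10.7 on both at 12 h, 10.6 on both at 24 h, 10.9 and 10.7 at 48 h, 10.6 on both at 72 h and 10.5 and 10.6 at 96 h. All later arrays lay above T0 and the 48 h arrays reached the highest mean. One of the 48 h arrays read 10.7, as did both 12 h arrays, and a difference between these times was not tested. RPS19 rose by 0.50 (SE 0.07, limma adjusted p 0.00473) at 48 h, the largest rise of a member at that time, and by 0.30 (adjusted p 0.0372) at 24 h.

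Of the proteins that bind MDM2, RPL11, part of the 5S particle, read 7.3 and 7.4 at T0, 7.8 on both arrays at 12 h, 7.5 on both at 24 h and 7.7 and 7.6 at 96 h. RPS7 read 6.2 on both T0 arrays, 6.7 and 6.6 at 12 h, 6.4 on both at 24 h and 6.6 and 6.7 at 96 h. Both genes were above T0 on every one of these arrays. The RPL11 rise was 0.45 (limma adjusted p 0.000802) at 12 h and 0.30 (0.00831) at 96 h, and that of RPS7 was 0.45 at both times (0.000465 and 0.000712). Neither passed at 24 h, with 0.15 (limma adjusted p 0.159) for RPL11 and 0.20 (0.0531) for RPS7. RPL26, which binds MDM2 and also p53 mRNA, read 10.8 on both T0 arrays and 11 on both 12 h arrays, a rise of 0.20 (SE 0.05, limma adjusted p 0.0379), and did not pass at the other times, with 0.05 to 0.20. RPL5 and RPL23 had no feature of their own.

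Besides the Y-linked pair, 6 members missed the test at 12 h. RPL35A gave 0.10, RPL6 and RPL22 0.15, RPL34 and RPL35 0.20, and RPS18 0.35 (SE 0.08, limma adjusted p 0.0556). RPS18 is represented by its brightest feature of 7. On 5 others, which hold identical values, it rose by 0.40 (limma adjusted p 0.00505), and on the seventh the difference was -0.20 (0.105). RPL22 read 7.6 and 7.7 at T0 and 7.8 on both 12 h arrays, so that its groups were apart by a single step of the scale. Members with either kind of annotated start rose. Of the 32 members with a C and 4 or more pyrimidines there, 26 rose at 12 h, with a median of 0.35, and of the 12 with another start 10 rose, with a median of 0.45. The difference between these classes was not tested.

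**Figure D2:**
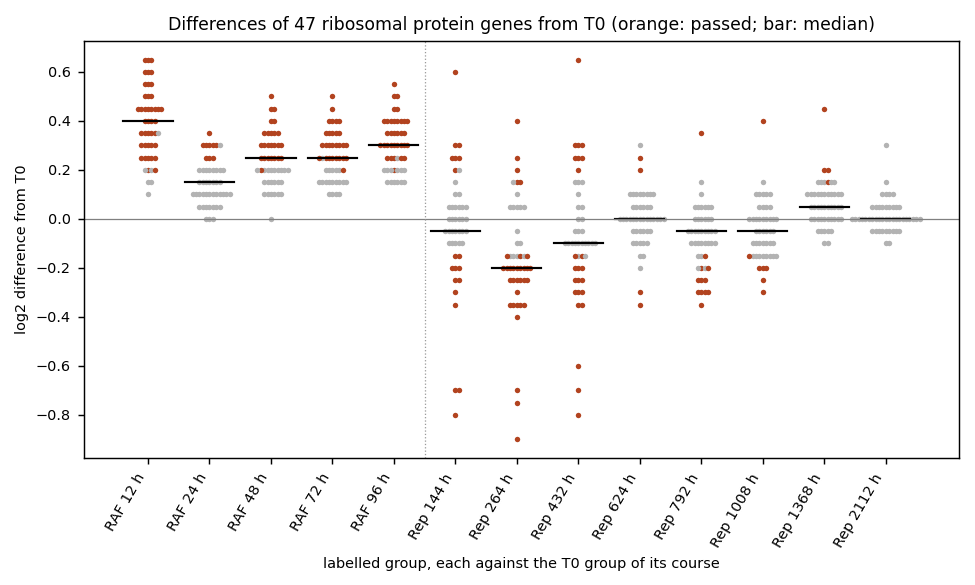
Log2 difference of 47 ribosomal protein genes (without the Y-linked pair) from the T0 arrays of their course, by labelled time; each point is a gene, orange where limma's adjusted p is under 0.05, and bars are medians of these 47 genes. In the RAF comparisons all points that pass lie above 0, while the replicative ones at 144 to 432 h spread from -0.9 to 0.65.

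In the replicative course members passed in both directions at 144, 264 and 432 h, and most of those at 264 h fell. The largest changes came from a few small-subunit genes. Against the arrays labelled T0, 7 members rose and 12 fell at 144 h, where 30.1% of all features rose and 28.6% fell. At 264 h 5 rose and 28 fell, against 30.4% and 26.5% of all features, and the median was -0.20. At 432 h 8 rose and 16 fell, against 31.2% and 26.8%, with a median of -0.10. The share of members called at 144 and 432 h was below that of all features, of which 58.7% and 58% changed in either direction. At 264 h 33 members changed, against 56.9% of all features. At 144 h, quantile normalization turned the split to 10 up and 9 down, and without 144 h replicate 1 it was 4 up and 8 down. These comparisons share their T0 arrays, which lie across the main split of the arrays from the 144 to 432 h ones. With the arrays labelled 144 h as the baseline, chosen after seeing the data, 264 h gave no rise and 9 falls, where 10.2% of all features changed, and 432 h 1 rise and 2 falls, where 11.2% did.

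RPS4X, the X-linked small-subunit protein whose paralogs lie on the Y chromosome, had the widest span of the members. It read 8.8 on both T0 arrays, 7.9 and 8.1 at 144 h, 7.9 on both 264 h arrays, 8.0 on both 432 h arrays and 8.7 and 8.6 at 624 h. The later pairs read 9.2 and 9.1 at 792 h, 9.2 on both at 1008 h, 9.2 and 9.3 for 1368 h, and 9.0 and 9.2 for 2112 h. The RAF arrays read 7.7 to 8.1. The 18 arrays on one side of the main component therefore lay at or below 8.1 and the 12 on the other at or above 8.6. RPS4X fell by 0.80 at 144 h, 0.90 at 264 h and 0.80 at 432 h (SE 0.08 each), with limma adjusted p of 4.78e-06, 1.7e-06 and 4.26e-06. It was the one member that rose at 792 h (0.35, adjusted p 0.00473) and at 1008 h (0.40, 0.00215), and at 1368 h it rose by 0.45 (0.00123).

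RPS28, a small-subunit protein beside the mRNA exit, gave 11.9 and 12.0 at T0, 11.2 and 11.3 at 144 h, 11.2 on both 264 h arrays, 11.3 and 11.2 for 432 h, 11.5 and 11.7 for 624 h, and 11.9 to 12.1 on every later replicative array. RPS15, a protein of the subunit's head that is needed for export of the pre-40S particle, gave 12.6 and 12.7 at T0, 11.9 and 12.0 for 144 h, 12.0 and 11.9 for 264 h, 12.0 and 12.1 for 432 h, 12.4 and 12.5 for 624 h and 12.4 to 12.7 on the later arrays. For both genes the 144 to 432 h arrays were low and apart from T0, and the RAF arrays lay in the same low range, up to 11.4 for RPS28 and 12.2 for RPS15. At 144 h the fall was 0.70 for both, with SE 0.07 and limma adjusted p of 7.54e-06 for RPS28 and 3.63e-06 for RPS15. At 264 h RPS28 fell by 0.75 and RPS15 by 0.70, and at 432 h they fell by 0.70 and 0.60. In the large subunit the falls were smaller. At 144 h RPL34 fell by 0.35 and RPL37A by 0.30, with limma adjusted p of 0.000202 and 0.000627, and at 264 h RPL19 fell by 0.40 (0.000123) and RPL18 by 0.35 (0.000207).

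The members that rose at these times were led by RPS19. It read 10.0 and 10.2 at T0, 10.7 on both arrays at 144 h, 10.4 and 10.6 for 264 h, 10.8 and 10.7 for 432 h, 10.3 and 10.5 for 624 h, and 9.9 to 10.3 from 792 h on. The 144 to 624 h arrays stood above T0 without overlap, although RPS19 did not pass at 624 h. From 792 h on the range of the arrays held that of T0. The rise was 0.60 (SE 0.11, limma adjusted p 0.000593) at 144 h, 0.40 (0.00822) at 264 h and 0.65 (0.000325) at 432 h. At 144 h RPS14, a protein of the platform lost in the 5q- syndrome, and RPS15A each rose by 0.30, and RPL27, RPL31 and RPL7 each by 0.25 and RPS12 by 0.20. At 264 h the other risers were RPS15A with 0.25, RPL27 with 0.20 and RPL26 and RPL31 with 0.15. At 432 h they were RPL9, RPL27 and RPL31 with 0.30, RPL26, RPS14 and RPS15A with 0.25 and RPL7 with 0.20.

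RPLP1 read 8.4 on both T0 arrays and 8.1 and 8.2 at 264 h, a fall of 0.25 (limma adjusted p 0.00221), and did not pass at any other replicative time, with -0.10 to 0.10. RPL11 fell by 0.20 (0.0164) and RPS7 by 0.20 (0.00326) at 264 h, whereas RPL26 rose there by 0.15 (0.0353). RPS7 also fell by 0.20 (0.00688) at 792 h and by 0.15 (0.0361) at 1008 h. All of these are changes of 3 steps of the scale or less.

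From 624 h on at most 12 of the 49 members passed limma's test against T0. That was at 792 h, where the 24.5% of members past the test were near the share of all features. There 2 members had both arrays above both T0 arrays and 19 had both below, against 23.1% and 20.8% of all features. At 624 h 2 members rose and 2 fell, where 7.17% and 6.67% of all features did (13.8% in all). RPL31 rose by 0.25 and RPS15A by 0.20, while RPS28 fell by 0.35 and RPL35A by 0.30. The count of 4 became 1 without T0 replicate 1, 0 without T0 replicate 2, 0 without 624 h replicate 1 and 2 without 624 h replicate 2. At 792 h RPS4X rose and 11 members fell, against 13.1% and 11.7% of all features, and 24.8% in either direction. Those that fell most were RPS23 with 0.35 and RPL8, RPL9, RPS3 and RPS6 with 0.30 each. RPS23 read 7.4 on both T0 arrays and 7.1 and 7.0 at 792 h, clear of each other (limma adjusted p 0.000674).

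At 1008 h RPS4X rose and 6 members fell, against 11.7% and 11.3% of all features (23% in all). RPS3 fell by 0.30, RPS15 by 0.25, RPL14, RPL37 and RPS6 by 0.20 and RPS7 by 0.15. The count of 7 was 3 without T0 replicate 1 or 1008 h replicate 1, and 2 without T0 replicate 2 or 1008 h replicate 2. At 1368 h 4 members rose and none fell, where 8.74% and 8.41% of all features did (17.1% in all). The 4 were RPS4X with 0.45, RPL6 and RPL30 with 0.20 and RPL29 with 0.15. RPL30 had a limma adjusted p of 0.0459, and its dimmer feature, which was not used, showed a difference of 0. Without T0 replicate 1 the 4 became 2, and without T0 replicate 2 or 1368 h replicate 2 they became 1.

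Between the arrays labelled 2112 h and T0 no member passed. By limma's test the count was 0 of 49, against 2.8% of all features (1.34% up and 1.46% down), and 1 member had an unadjusted p under 0.05. That was RPS4X, chosen here after its value was seen, with a difference of 0.30 (adjusted p 0.0681). RPL29 read 9.0 on both 2112 h arrays and 9.0 and 8.9 at T0, and RPL10A read 9.6 on both and 9.7 and 9.6, so that these groups overlapped. Over the replicative times together limma's F test passed for 39 members, against 74.2% of all features.

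With the 144 h arrays as the baseline, the share of members past the test did not exceed that of all features at any time from 624 h on. At 2112 h 14 members rose and 7 fell, against 29.8% and 30.9% of all features (60.7% in all), and quantile normalization gave 11 and 8. RPS4X rose by 1.10 (SE 0.08, limma adjusted p 3.39e-07), RPS15 by 0.70 (3.27e-06), RPS28 by 0.65 (1.18e-05), RPL34 by 0.45 (2.68e-05) and RPL36 by 0.30 (0.00057). RPS19 fell by 0.65 (SE 0.11, 0.000297), RPS14 and RPL7 by 0.35, RPS15A by 0.30 and RPS12, RPL31 and RPL27 by 0.25. Against 144 h, an added baseline, the 624 h arrays gave 9 rises and 2 falls, where 46.7% of all features changed, and the 792 h arrays 8 and 15, where 61.2% did. The 1008 h arrays gave 8 rises and 12 falls, against 58.7% of all features, and the 1368 h arrays 21 and 7, against 57.9%. For 624 to 1368 h against 144 h these shares cover both directions, and shares by direction were not computed. Of the mitotic genes, all 10 fell against T0 at 144, 264, 432, 792, 1008 and 1368 h and all 10 rose at 2112 h against 144 h. At 1368 h, where 4 members rose, their median was -2.42. At 624 h 7 of the 10 fell, and at 2112 h, where no member passed, 9 fell against T0, with a median of -0.50. Their part in the member counts was not tested.

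**Figure D3:**
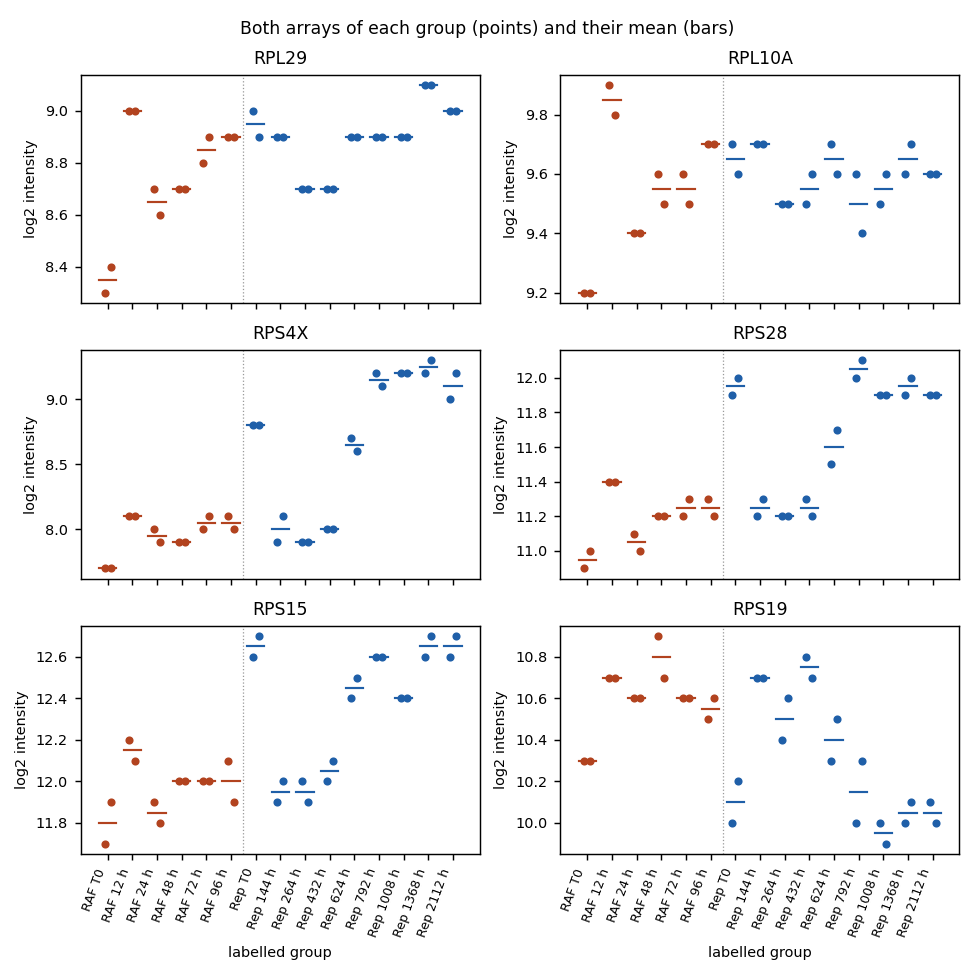
Log2 intensity of 6 ribosomal protein genes on all 30 arrays by labelled group (RAF orange, replicative blue); points are arrays and bars the means of 2, and each panel has its own axis. RPL29 and RPL10A are lowest at RAF T0, RPS4X, RPS28 and RPS15 are low on the RAF and replicative 144 to 432 h arrays, and RPS19 has its highest mean, 10.8, at RAF 48 h.

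The last labelled times of both courses were set against each other in a model of all 30 arrays, as the effect at replicative 2112 h minus the effect at RAF 96 h, each against its own T0. The difference was below 0 beyond limma's test in 26 members and above 0 in none, where 7% of all features were below and 6.66% above (13.7% in all), and the members' median was -0.30. RPL10A and RPS12 each had a difference of -0.55, with limma adjusted p of 0.00038 and 0.000278, and RPL29 had -0.50 (SE 0.07, 2.83e-05). RPL7, RPS7 and RPS9 had -0.45. Among the genes singled out for their role, RPL11 and RPLP1 had -0.35 and RPL26 had -0.15, which did not pass (0.252). This difference draws on the RAF T0 arrays, where the members were low.

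Across the 15 group means, RAF T0 gave the lowest value, ties included, in 41 of the 49 members, and the lowest of the 6 RAF means in 48. The highest mean, ties included, lay at RAF 12 h in 20 members and at replicative 1368 h in 25. The matching shares over all features were not computed, so these tallies do not set the members apart from other features. Ties are frequent on values rounded to 0.1. The SD over the 15 means was a median of 0.13 for the members, against 0.18 for all features. It was largest in RPS4X with 0.57, then RPS28 with 0.38, RPS15 with 0.32, RPS19 with 0.29 and RPL34 with 0.21. It was smallest in RPL22 with 0.06, with RPL30, RPL26, RPL6 and a Y-linked member next, at about 0.08 each. RPL22, which has the close paralog RPL22L1, ran from 7.65 at RAF T0 to 7.85 at replicative 432 h.

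As a description, the 47 members outside the Y chromosome were correlated over the 15 group means with the average of the other members. These points share arrays and T0 groups. The median r was 0.80, with 37 members over 0.5, and it ran from 0.96 in RPL11 to -0.27 in RPS19. RPS14 and RPS15A, at -0.02 and -0.01, also followed the rest little. Outside the members, the 5 named features with the most similar profile were the RPS2 pseudogene RPS2P7 (r 0.94 over 15 groups), the mitochondrial ribosomal protein gene MRPL48, the PDZ and LIM domain gene PDLIM7 and the caveolar gene CAVIN3 (0.93 each), and the actin-bundling gene FSCN1 (0.91).

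**Figure D4:**
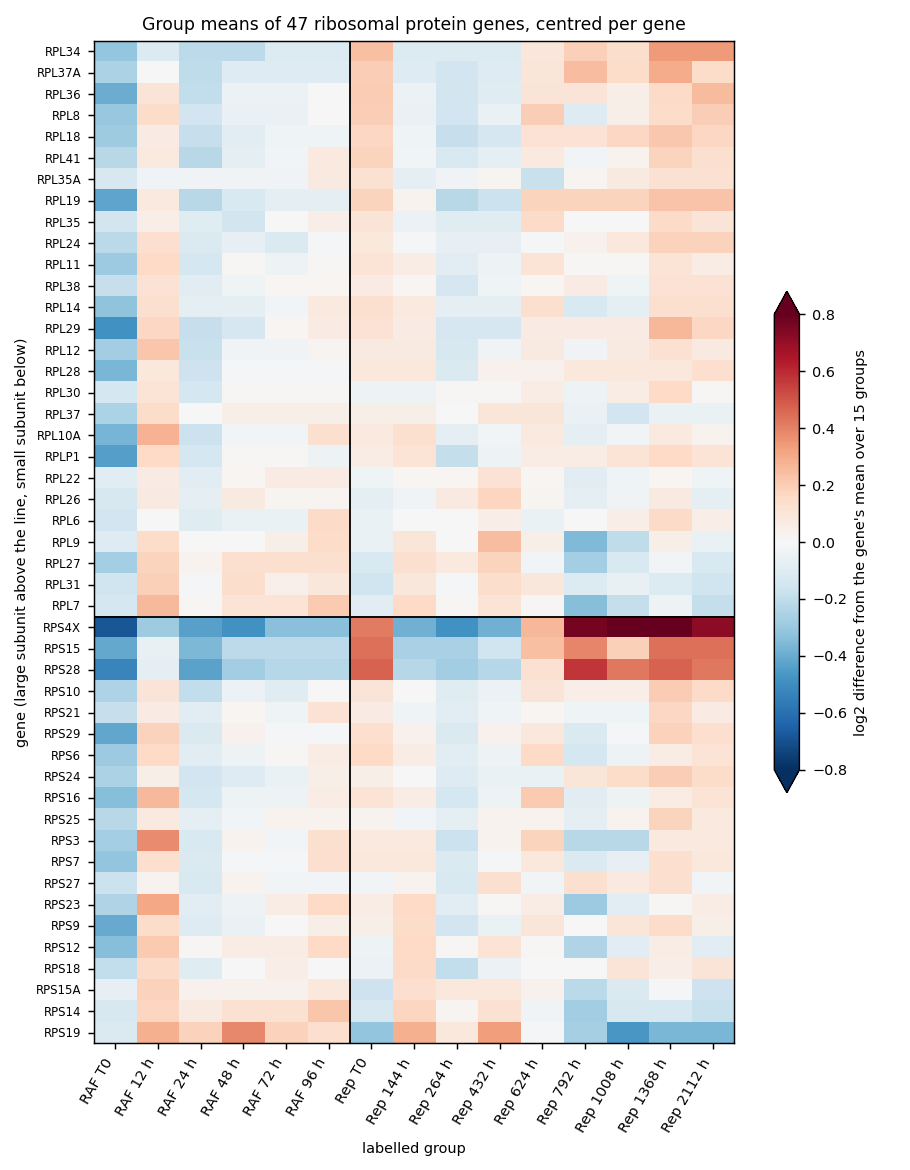
Group means of 47 ribosomal protein genes, each centred on its mean over the 15 labelled groups, with large-subunit genes above the line and small-subunit genes below, ordered within a subunit by the difference of replicative 144 h from T0. The RAF T0 column is low in nearly all rows, while RPS4X, RPS15 and RPS28 are low from RAF T0 to replicative 432 h apart from replicative T0, and RPS19 is high at replicative 144 to 432 h.

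Other translation genes with 5′TOP mRNAs, such as elongation factors, were also mostly higher on the later RAF arrays. Of 14 measured, 12 rose and none fell at 12 h in the RAF course, with a median of 0.45, and 12 rose at 96 h, against 9.7% and 7.97% of all features. PABPC1, the poly(A)-binding protein, rose by 0.50 (SE 0.04, limma adjusted p 0.000128) at 12 h and the elongation factors EEF1A1 and EEF2 by 0.45 each. At replicative 264 h 2 of the 14 rose and 9 fell, against 30.4% and 26.5% of all features. At 2112 h none passed, where 2.8% of all features did. FAU, which encodes RPS30 fused to a ubiquitin-like protein, rose by 0.30 at RAF 12 h (limma adjusted p 0.00157) and fell by 0.20 at replicative 144 h (0.00314). Of 8 genes listed for the control of 5′TOP mRNAs, including LARP1 and MTOR, 1 rose at RAF 12 h, where 9.7% of all features did. It was AUTS2, with a rise of 0.30, and a part of AUTS2 in that control is not established. In the replicative course 3 of the 8 fell at 144 h, among them the cap-binding factor EIF4E by 0.85. At 264 h 6 fell, with a median of -0.25, and at 432 h 7 fell, with a median of -0.30. Of all features, 28.6%, 26.5% and 26.8% fell at 144, 264 and 432 h. None of the 8 rose at these 3 times.

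The ribosome biogenesis genes, which make and process ribosomal RNA, showed other counts. Of 33 measured, 12 rose and 1 fell at RAF 12 h, where 9.7% of all features rose and 9.73% fell. At 96 h 18 rose and 1 fell, against 7.97% and 7.71%. The rRNA methyltransferase gene FBL rose by 1.05 at 12 h (SE 0.05, limma adjusted p 1.78e-05), and RRN3, which brings RNA polymerase I to its promoter, fell by 0.50 (0.000286). In the replicative course 31 of 33 fell at 144 h, 32 at 264 h and 33 at 432 h, with medians of -0.60, -0.60 and -0.65, and none rose. The shares of all features that fell there were 28.6%, 26.5% and 26.8%. Falls were also seen later. At 624 h 23 fell and none rose, against 6.67% and 7.17% of all features. At 792 h 15 fell and 2 rose, against 11.7% and 13.1%. At 1008 h 16 fell and 2 rose, against 11.3% and 11.7%, and at 1368 h again 16 and 2, against 8.41% and 8.74%. At 2112 h none of the 33 passed in either direction, where 2.8% of all features did. NOP58, a core protein of box C/D snoRNPs, fell by 1.30 at 144 h (SE 0.05, 3.83e-09). MYC, a transcription factor that drives ribosome production, read 8.3 on both replicative T0 arrays, 7.7 on both at 144 h and 8.1 and 8.2 at 2112 h. On the RAF arrays it read 7.3 and 7.5 at T0, 8.0 and 7.9 at 12 h, and 7.8 on both at 96 h. MYC fell by 0.60 at 144 h and rose by 0.55 and 0.40 at RAF 12 and 96 h, with limma adjusted p of 1.24e-05, 0.00149 and 0.00927.

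The mitochondrial ribosomal proteins, which are not made from 5′TOP mRNAs as a class, gave 19 rises and 6 falls of 74 at RAF 12 h, with a median of 0.05, and 24 and 4 at 96 h. All features gave 9.7% and 9.73% at 12 h and 7.97% and 7.71% at 96 h. At replicative 144 h 2 rose and 51 fell, against 30.1% and 28.6% of all features. At 432 h 3 rose and 55 fell, against 31.2% and 26.8%, and the medians at these times were -0.30 and -0.35. The difference between the cytosolic and mitochondrial sets was not tested.

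Of the 8 like-paralogs, 3 rose and 1 fell at RAF 12 h, against 9.7% and 9.73% of all features. At each of replicative 144, 264 and 432 h 1 rose and 6 fell. Of all features, 30.1%, 30.4% and 31.2% rose at these times and 28.6%, 26.5% and 26.8% fell. RPL22L1, which can replace RPL22, read 5.0 on both RAF T0 arrays, 6.0 and 5.9 at 12 h, 5.0 and 4.8 at 24 h and 5.9 on both at 96 h. The 12 and 96 h arrays were clear of T0, and the 24 h arrays overlapped it. RPL22L1 rose by 0.95 (SE 0.07, limma adjusted p 5.43e-05) at 12 h and fell by 0.80 (1.89e-05) at replicative 144 h, while RPL22 passed in no comparison with T0. RPS27L, a p53-induced paralog of RPS27, went the other way. It read 7.2 and 7.3 at RAF T0 and 7.1 and 7.0 at 12 h, a fall of 0.20 (0.0379). At replicative T0 it read 6.6 and 6.7 and at 144 h 7.0 and 7.1, a rise of 0.40 (limma adjusted p 0.000189). From 264 to 1368 h its arrays read 7.0 to 7.4, and those at 2112 h read 6.5 and 6.6.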

How the data were processed

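The authors deposited processed log2 values per array feature, a unit read from its range of -1.6 to 14, and all 1569870 values lay on steps of 0.1. How they were summarised and normalized, and the log base, is not given in the sources used here. Scanner files were not used, and precision is limited by the number of arrays. Symbols came from the probe table given with the series (21055 features with 1 symbol, 1406 with several, 29868 with none), and 48 of 49 members matched RefSeq by gene ID with no symbol changed. The brightest feature stood for a gene.

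Groups followed the labels alone. Differences were fitted with limma 3.58.1 (lmFit and eBayes) in R 4.3.3 with data.table (version 1.17.8), on the 12 RAF arrays, the 18 replicative arrays or, for the difference of the last times, all 30. Tests were two-sided, adjusted over 52329 features by the Benjamini-Hochberg method, with a threshold of 0.05, and were tested on simulated data. The cell-type, paralog, 5′TOP, biogenesis and other lists were read as counts and medians only. Named are the stalk and MDM2-binding proteins, the 5 members that rose and fell most past the test in each comparison, the 5 with the largest and smallest SD of group means, those that passed against the direction of most members, and the 5 outside features of most similar profile. Genes named beyond this rule were chosen after their values were seen. The members and lists were chosen with earlier results of these data known. Promoter sequences are RefSeq's, of GRCh38.p14.

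Alternatives were quantile normalization, features above the median only, the mean of a gene's features, a replicate block, a model of all arrays, leaving out arrays, and the 2 added baselines. Same-numbered arrays of different groups did not deviate together as a rule, and the numbers were not taken to pair the arrays. Over 105 pairs of groups the correlations of their deviations ran from -0.28 to 0.36, with a median of 0.02. Of these, 18 were over 0.1 and 48 below 0. Whether some of the groups shared a deviation was not tested.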

Additional observations from a re-analysis of the deposited data

Results flagged for a closer look

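The effect at the last replicative time differed from that at the last RAF time in 26 members, by limma's test of the difference itself (2112 h against T0 minus 96 h against T0, all 30 arrays). The largest were RPL10A (-0.55, from 0.50 at RAF 96 h and -0.05 at 2112 h), RPS12 (-0.55, from 0.50 and -0.05), RPL29 (-0.5, from 0.55 and 0.05), RPL7 (-0.45, from 0.35 and -0.10), RPS7 (-0.45, from 0.45 and 0) and RPS9 (-0.45, from 0.45 and 0). RPL11 had -0.35, from 0.30 and -0.05, and RPLP1 also had -0.35, from 0.40 and 0.05. RPS28, among the members of widest span, had -0.35, from 0.30 and -0.05. The RAF effects are set against arrays labelled T0 whose mitotic genes were the lowest of the 15 groups. The part of that in these differences was not tested.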

How the results depend on the processing

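Over the 17 counts of members past the test, the mean of all features of a gene changed none by more than 1.5 times, and a replicate block 1 (RAF 24 h, 5 members in place of 9). Features above the median only gave 15 members at RAF 24 h, 11 at 1008 h (in place of 7) and 1 at 2112 h. The model of all 30 arrays gave 1 at 2112 h. Quantile normalization gave 2 at 1368 h (in place of 4) and turned the sign of the balance at 144 h, with 19 members again but 10 up and 9 down. It also gave 1 up and 2 down at 624 h in place of 2 and 2, and 11 up and 8 down at 2112 h against 144 h. The cause of these shifts was not tested. With RAF 24 h as the baseline, 24 members passed at 12 h, 0 in both the 48 h and 72 h comparisons, where 0 of all 52329 features passed too, and 9 for 96 h. With replicative 144 h as the baseline, 9 members passed for 264 h, 3 for 432 h, 11 for 624 h, 23 for 792 h, 20 for 1008 h and 28 for 1368 h. Leaving out 1 array at a time gave counts from 1 to 5 for RAF 24 h, 10 to 18 for 48 h and 6 to 19 for 72 h. In the replicative course they gave 12 to 17 for 144 h, 0 to 2 for 624 h, 2 to 3 for 1008 h and 1 to 3 for 1368 h. For the other counts the ranges stayed within 1.5 times: 32 to 38 for RAF 12 h, 24 to 31 for 96 h, 24 to 28 for 264 h, 19 to 22 for 432 h, 17 to 21 for 2112 h against 144 h and 18 to 27 for the difference of the last times, 25 to 35 and 36 to 41 for the joint tests, and 0 for 2112 h. For 792 h the range was 8 to 11.

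With 2 arrays a group, a lone array left in a group is assumed to vary like the others. Values come in steps of 0.1, and dim features carry no background call. Features of RPS18 disagree, as one of its 7 fell by 0.85 at replicative 144 h (limma adjusted p 4.97e-05) where the one used gave 0.20 (0.0557). Those of RPL30 disagree as well. Its dimmer feature rose by 0.40 at replicative 264 and 432 h (limma adjusted p 0.00658 and 0.00641), where the one used gave 0.05.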
